A study of Mus musculus with 8 samples.

Results

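The Sall genes of the mouse, Sall1, Sall2, Sall3 and Sall4, were followed in resident microglia and invading macrophages sorted from the brain after a stroke model. They are 4 of the 22441 named genes on the array, and all probes that the array files name for them were taken, which gave 6 of 55681 gene probes: 1 each for Sall1, Sall2 and Sall3, and 3 for Sall4. The C57BL/6 mice carried transplanted bone marrow, had 30 min of focal ischemia by occlusion of the middle cerebral artery (MCAo) and were studied after 7 days of reperfusion, with no further treatment. Resident microglia were sorted as GFP-positive cells and invading macrophages as RFP-positive cells, 1 sample of each from animals A, B, C and D. All 8 samples therefore came from ischemic, bone-marrow-chimeric brains, and no uninjured control was analysed here. The labels used here do not give the age or sex of the animals, the promoters of the 2 reporters, or how many of the host's own blood cells remained after transplantation.

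Sall proteins are zinc finger transcription factors related to spalt of the fruit fly. They bind AT-rich DNA through zinc fingers near the carboxyl end, and Sall1 and Sall4 recruit the NuRD complex, which removes acetyl groups from histones and remodels nucleosomes, through a short amino-terminal motif. In the mouse, Sall1 is known as a regulator that maintains microglial identity, and among cells of the macrophage lineage its expression in the brain is largely a mark of microglia. Sall4 is best known for embryonic stem cells and the germ line, Sall3 for neurons and limbs during development, and Sall2 for a less conserved structure and for roles in growth control.

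The 6 probes are 60 bases long and lie on the minus strand in build mm9. The Sall1 probe lies on chromosome 8 (chr8:91551278-91551337) and the Sall2 probe on chromosome 14 (chr14:52930994-52931053). The 3 Sall4 probes lie on chromosome 2, at chr2:168580437-168580496 (A_55_P2173546), chr2:168578172-168578231 (A_51_P145260) and chr2:168574333-168574392 (A_51_P349087). The files place them 2094, 2666 and 4512 bases into the transcript. A_51_P145260 and A_51_P349087 list all 3 RefSeq mRNAs of Sall4, while A_55_P2173546 lists 1 of the 3. Which exon or UTR each probe falls in was not determined here. Sequences are shown for the Sall4 probes, which gave different results, and for Sall1 and Sall2, which were both called. Sall3 was called too, but its sequence is not shown here. The sequences shown are printed 5′ to 3′ with no letters in capitals. Those of the 2 Sall4 probes nearest the start of the message are whole, and the others are given as their first 30 bases.
Sall4 A_55_P2173546: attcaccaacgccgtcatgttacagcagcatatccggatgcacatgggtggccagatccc
Sall4 A_51_P145260: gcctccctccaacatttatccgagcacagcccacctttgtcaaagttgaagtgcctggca
Sall4 A_51_P349087: tgcgaccacccaagtattgccaggtcttaa
Sall1 A_55_P1977850: cctcttgatcaagagcaggtatagtgttgg
Sall2 A_51_P137094: tgagatgtagtatttactcttaacatagga

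Signals are given as log2 of the processed spot intensity minus the array's 75th percentile, and differences are macrophages minus microglia. Probes that 4 or more of the 8 arrays measured well above background were tested, and a probe was called at an adjusted p under 0.05 (limma, Benjamini-Hochberg over all 29365 tested probes). Of the tested probes 1206, or 4.11%, were called lower in macrophages and 688, or 2.34%, higher, together 6.45%. Higher calls made up 36.3% of all calls, 53.1% with arrays centred on their median and 25.4% with that percentile drawn from the probes that every array detected. A single array measured 45.7% to 57.1% of its probes well above background. Precision here is limited by the number of arrays, and the number of calls also depends on which arrays are used. All 8 arrays gave 1894 calls. Leaving out macrophage replicate 2 gave 4098, and leaving out any other 1 array gave 981 to 1545. The microglia arrays measured 12 of 12 microglia markers well above background and the macrophage arrays 10 to 11, with summed signals of 1129 to 1428 and 255 to 591 times the array's 75th percentile. Macrophage replicate 2, from animal B, stood apart: it correlated with the other macrophage arrays at r = 0.840 to 0.872 across probes, and its endothelial markers summed to 774 against 12.2 to 61.5 in the other macrophage arrays and 4.37 to 5.67 in microglia. The arrays lay on 2 slides, slide 1 with microglia replicates 1 and 2 and macrophage replicate 1, and slide 2 with the other 5.

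Sall1, the regulator of microglial identity, was bright in every microglia sample and at or near background in macrophages. It measured 4.06, 4.42, 3.90 and 4.36 in the microglia of animals A to D and -4.61, -2.78, -4.38 and -5.50 in their macrophages. All microglia samples lay far above all macrophage samples, the groups did not overlap, and the highest macrophage value was that of replicate 2, the array that stood apart. The means were 4.19 ± 0.25 in microglia and -4.32 ± 1.13 in macrophages (SD, n = 4 each). The difference was -8.50 (SE 0.52, limma, adjusted p = 5.257e-05). Only macrophage replicate 2 measured the probe well above background, so that the macrophage level of the other 3 is a bound, and Sall1 was at least 198-fold lower in macrophages on the processed signal. With normexp background correction, which adds an offset of 50 to every signal, the difference was -5.68 (adjusted p = 1.825e-07).

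On the scanner's own scale the Sall1 spot read 3317, 5424, 3612 and 4133 in microglia and 6.15, 39.1, 11.9 and 5.21 in macrophages (processed intensity, not scaled between arrays). The scanner software's error for the macrophage spots was 4.62, 5.14, 4.64 and 4.51, so that in animals A and D the spot was close to its own error. Relative to the microglia of the same animal, the macrophage signal of Sall1 was 0.677% in B, and its upper limit at the array floor was 0.559% in A, 0.488% in C and 0.354% in D. Of the 12 microglia markers, 10 were well above background on all 4 macrophage arrays, and in 9 of these the lowest share was above the highest of Sall1. P2ry12, the purinergic receptor of resting microglia, kept 5.94% to 14.8% of its microglial signal, and Siglech, a sialic acid binding lectin, kept 38.9% to 51.1%. The exception was Sparc, a matrix protein, at 0.186% to 28.2%, and no measured share in all animals can be given for Crybb1 and Slc2a5. In sorted bulk samples like these, fewer cells of a type and less RNA per cell cannot be told apart.

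**Figure D1:**
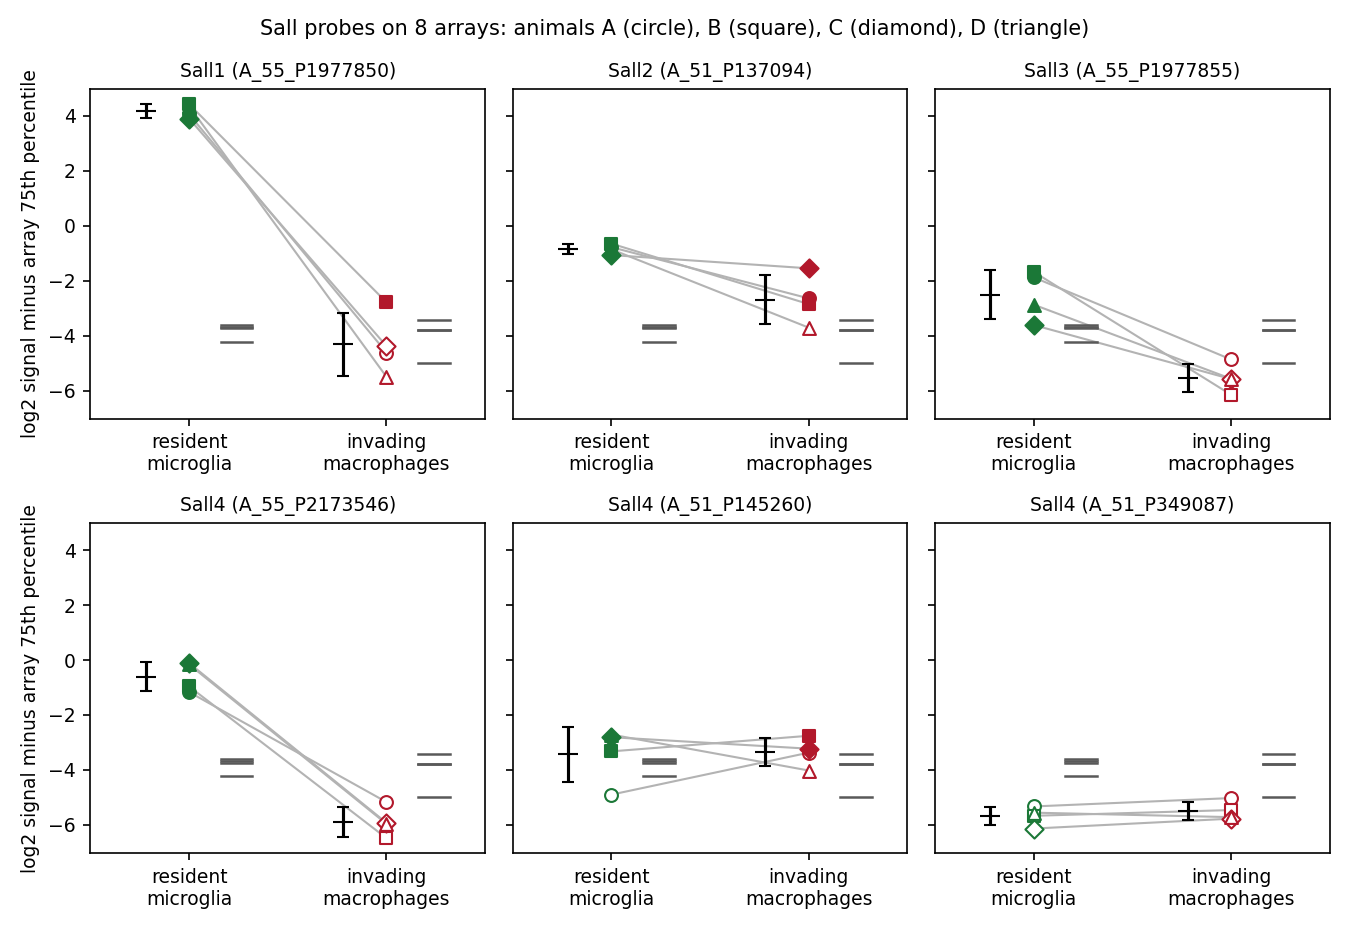
Each panel shows 1 Sall probe, with the log2 signal minus the array's 75th percentile on the vertical axis and the groups on the horizontal axis; grey lines join samples of 1 animal, filled symbols are well above background, black marks are means with SD (n = 4), and short grey bars are the array floors (the lowest signal of a probe well above background). Sall1 falls from about the height of 4.19 to -4.32, Sall2, Sall3 and the Sall4 probe A_55_P2173546 fall less, and the remaining Sall4 probes overlap between the groups.

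Sall2, the most divergent member of the family, was dimmer than its array's 75th percentile in all samples and lower in macrophages. It measured -0.78, -0.65, -1.07 and -0.86 in microglia and -2.64, -2.85, -1.55 and -3.71 in macrophages of animals A to D. The microglia values lay close together and all above the macrophage values, of which that of animal C came nearest. The difference was -1.85 (SE 0.42, adjusted p = 0.0372, limma), or 3.60-fold lower, and 3 of 4 macrophage arrays measured the probe well above background. With normexp background correction it was -0.86 (adjusted p = 0.0351). This call did not hold in the paired fit, with animal as a block, where the adjusted p was 0.0902, nor with slide as a block (-1.81, adjusted p = 0.0803). It was also lost without any 1 of microglia replicates 1 to 4 (-1.83, -1.79, -1.93 and -1.86, adjusted p = 0.0850, 0.109, 0.0822 and 0.0938) and without macrophage replicate 1 or 4 (-1.86 and -1.51, adjusted p = 0.0826 and 0.0559). It held without macrophage replicate 2 or 3 (adjusted p = 0.0441 and 0.0104). Within slide 1 the difference was -1.93 and within slide 2 it was -1.74 (adjusted p = 0.263 and 0.416).

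Sall3, a developmental regulator close to Sall1 in structure, was dim and measurable on the microglia arrays alone, with a probe on chromosome 18 from 81163136 to 81163195. It measured -1.88, -1.68, -3.61 and -2.87 in microglia and -4.86, -6.15, -5.58 and -5.57 in macrophages. The groups did not overlap, and the microglia of animals A and B, hybridised on slide 1, were higher than those of C and D, on slide 2, so that slide and animal cannot be told apart in this gap. All 4 microglia arrays and 0 of 4 macrophage arrays were well above background, and the macrophage spots read 3.80 to 5.17 on the scanner's scale, each about as large as its own error. The difference was -3.03 (SE 0.47, adjusted p = 0.00772, limma), and Sall3 was at least 2.80-fold lower. With slide as a block the difference was -2.73 (adjusted p = 0.00328), while within slide 1 and slide 2 alone it was -3.09 and -2.52 (adjusted p = 0.126 and 0.0966). The call was also lost when dim signals were raised to the array floor (-1.49, adjusted p = 0.110) and with normexp background correction (-0.74, adjusted p = 0.0658).

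Sall4, the stem cell and germ line member, had 3 probes that disagreed. A_55_P2173546 measured -1.17, -0.96, -0.11 and -0.16 in microglia and -5.17, -6.48, -5.93 and -5.96 in macrophages. All microglia values were well above background and all macrophage values were not, with a wide gap between the groups, and the microglia on slide 2 were higher than those on slide 1, the reverse of Sall3. The difference was -5.28 (SE 0.37, adjusted p = 0.000112, limma), at least 10.5-fold lower on the processed signal. It was -1.87 with normexp background correction and -3.40 with signals raised to the array floor (adjusted p = 0.00132 and 0.00147). Within slide 1 it was -4.11 (adjusted p = 0.0825) and within slide 2 it was -5.99 (adjusted p = 0.00980).

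The second Sall4 probe, A_51_P145260, showed no such gap. It measured -4.90, -3.32, -2.81 and -2.71 in microglia and -3.37, -2.76, -3.23 and -4.02 in macrophages. The groups overlapped, macrophages were higher in animals A and B and lower in C and D, and 3 microglia and 2 macrophage arrays were well above background. The difference was 0.09 (SE 0.51, adjusted p = 0.934), with a sign that changed under 8 of the alternatives tried for it, among them the fits without microglia replicate 1 (-0.40) and without macrophage replicate 2 (-0.10). The third probe, A_51_P349087, was well above background on 0 of 8 arrays and was not tested, with values from -6.13 to -5.33 in microglia and from -5.77 to -5.02 in macrophages. The Sall4 probes thus gave no single direction for the gene, and only the probe that lists 1 of the 3 mRNAs was called. The other probes list that mRNA too, and why the probes disagree was not tested. Whether the called probe also took up RNA of another Sall gene was not tested either.

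In total 4 of the 5 tested Sall probes were called lower and 0 higher. Sall3 and the called Sall4 probe passed the brightness filter through the microglia arrays alone, so that they had to be lower to be tested at all, and the count of called probes supports nothing by itself. Of all tested probes 9.38% had every macrophage array below every microglia array, as these 4 did. With animal as a block (limma), Sall1 (-8.50, adjusted p = 0.00287), Sall3 (-3.03, adjusted p = 0.0326) and the Sall4 probe A_55_P2173546 (-5.28, adjusted p = 0.00537) kept their calls. In that fit 2.49% of all probes were called lower. This share is no measure for Sall3 and the Sall4 probe, whose direction the filter had set beforehand.

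**Figure D2:**
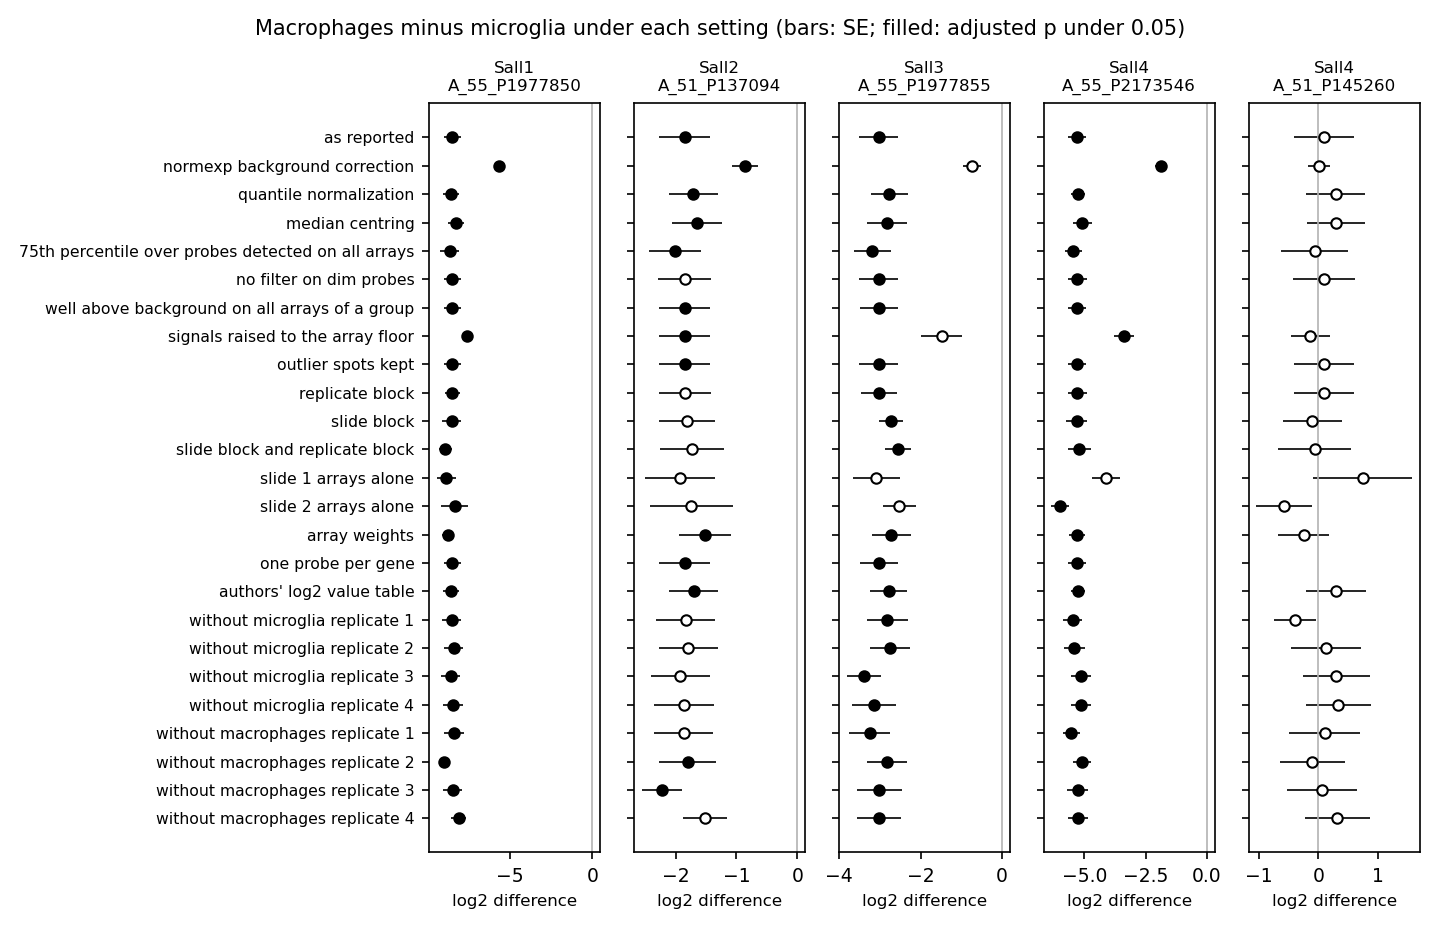
The log2 difference of each tested Sall probe, macrophages minus microglia, is on the horizontal axis (a different range in each panel) for the reported fit and each alternative, with bars of 1 SE; filled points have an adjusted p under 0.05. Sall1 stays called throughout, Sall2 changes between called and not called, and the second Sall4 probe lies on both sides of 0.

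The region around Sall1 was lower in macrophages along with the gene. Within 500 kb of the Sall1 probe the array holds 46 other probes, of which 34 were tested, and 26 of these, or 76.5%, were called lower and 0 higher. Over the array 4.68% of the 7365 tested probes named only by a chromosome interval were called lower. All 26 lay within 50 kb, a limit chosen after the values were seen: 26 of 28 tested probes there were called, with a median difference of -5.94. Among the 34, 16 had 0 of 4 macrophage arrays well above background, so that they too had to be lower to be tested. Probes of 1 interval overlap or lie close together, so that they may report the same transcript and are not independent.

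Most of these probes lie in an interval that the files name chr8:91569369-91594119, upstream of Sall1 and named on both strands. The 22 probes in it and in the nested interval chr8:91571643-91576878 lie 18 to 30 kb from the Sall1 probe, and 21 were called lower, 10 of 10 on the forward strand and 11 of 12 on the reverse strand. The brightest, A_30_P01019366 (chr8:91574375-91574434, forward), measured 4.08, 4.43, 3.95 and 4.80 in microglia and -4.95, -2.39, -5.24 and -1.48 in macrophages. All its microglia samples were bright, its groups did not overlap, and macrophage replicates 2 and 4 were higher than 1 and 3. The difference was -7.83 (SE 0.82, adjusted p = 0.000960, limma), at least 136-fold lower, with 2 of 4 macrophage arrays well above background. The 21 called differences ran from -7.83 to -3.14.

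The exception was A_30_P01033392 (chr8:91571897-91571956, reverse), which was well above background on all 8 arrays at 2.66 ± 0.19 in microglia and 1.94 ± 0.13 in macrophages (SD, n = 4). Its difference of -0.72 did not pass (adjusted p = 0.0830), while the nearest probes on its sides, with 0 of 4 macrophage arrays well above background, were at least 70.1-fold (A_30_P01023416) and 55.2-fold (A_30_P01027888) lower. It was picked out after its value was seen. The predicted gene Gm3134, whose probe lies 30.2 kb upstream of the Sall1 probe, was lower by at least 22.7-fold (-6.31, limma, adjusted p = 5.257e-05). Its probe was well above background on 0 of 4 macrophage arrays. On the other side of Sall1, 3 of 4 tested probes of the interval chr8:91471819-91551119, which lie 2.6 to 2.7 kb downstream of the Sall1 probe, were called lower.

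Beyond 50 kb the named neighbours of Sall1 did not follow it. Cyld, a deubiquitinase that restrains NF-kB signalling, differed by 0.43 (adjusted p = 0.377), Nod2, a sensor of bacterial peptidoglycan, by 0.52 (adjusted p = 0.610) and Snx20, a sorting nexin, by -0.54 (adjusted p = 0.414). In all 0 of 6 tested probes between 50 and 500 kb were called, and their median difference was 0.41. The count of 26 was 25 with animal as a block, 26 without macrophage replicate 2 and 25 with dim signals raised to the array floor. Which strand or transcript the labelled product of these probes came from was not tested.

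**Figure D3:**
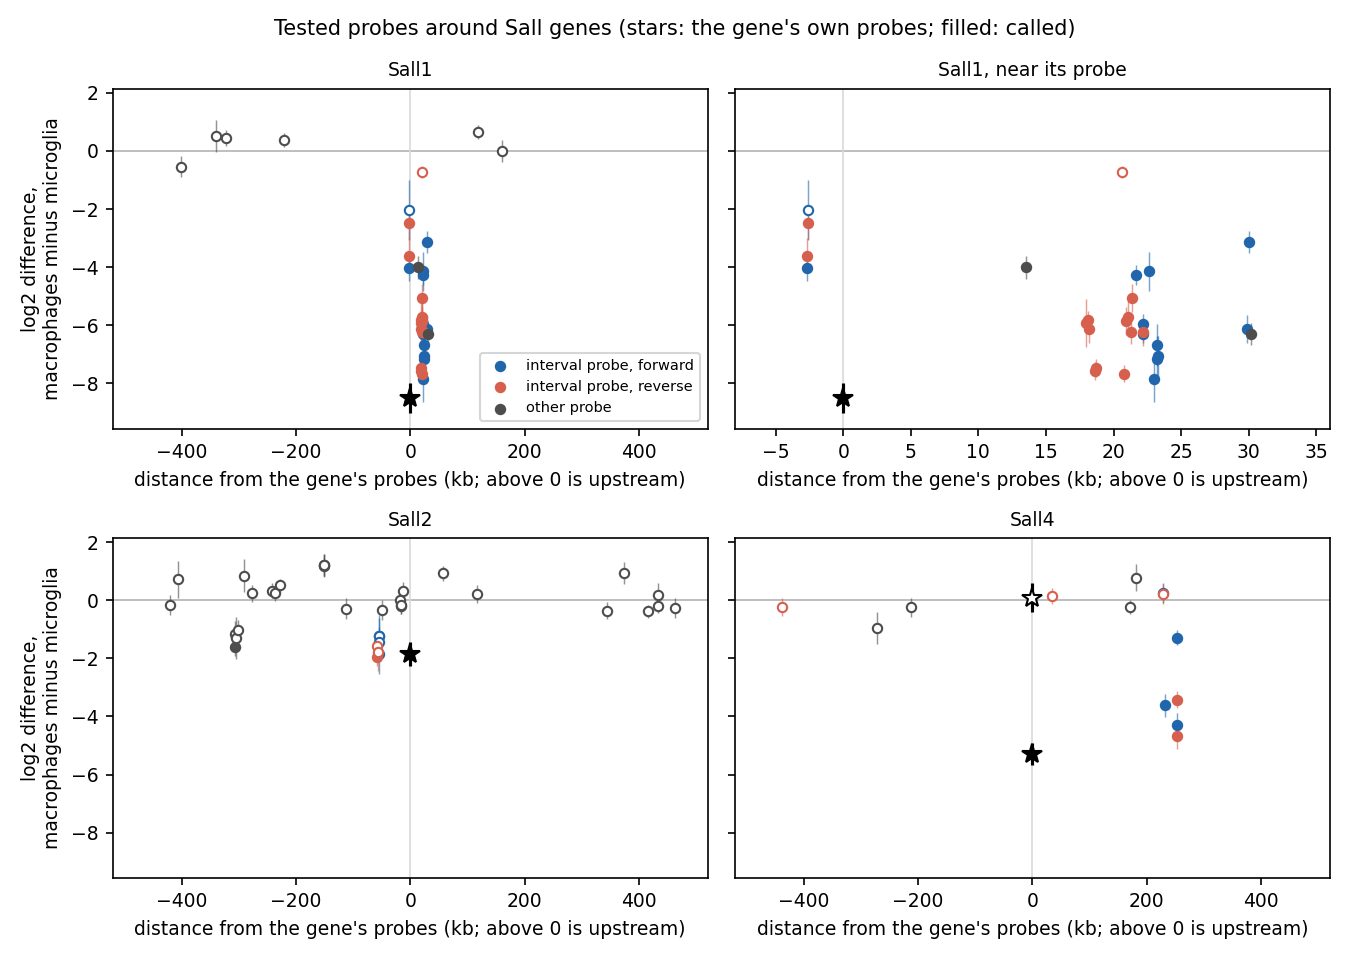
The log2 difference (macrophages minus microglia, bars of 1 SE) of each tested probe is plotted against its distance in kb from the nearest probe of the Sall gene, above 0 being upstream; stars are the gene's own probes and filled symbols are called. Around Sall1 the 26 called probes sit between -2.7 and 30.2 kb, and around Sall4 the called probes other than its own sit 232 to 253 kb upstream.

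Around Sall4, 5 of 13 tested probes were called lower (38.5%), against 4.11% of all tested probes. All 5 lay 232 to 253 kb upstream of its probes, 3 of them with 0 of 4 macrophage arrays well above background. These 3 had to be lower to be tested at all, so that the share of 38.5% supports nothing by itself. They belong to the intervals chr2:168804720-168854970 and chr2:168812065-168812873. Some of them overlap on opposite strands, so that they are not independent. With animal as a block 4 were called, and A_30_P01021633 was not (limma, adjusted p = 0.0571). In the first interval A_30_P01018056 and A_30_P01018468, 228 kb upstream, were not called either (0.22 and 0.25). The named neighbours of Sall4 were not called: Zfp64, a zinc finger protein, differed by -0.23 and 0.78 on its 2 probes, and Nfatc2, a calcium-dependent transcription factor of lymphocytes, by -0.95 and -0.25.

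Around Sall2, 2 of 35 tested probes were called lower (5.71%), which is close to the share over the array. One was a probe of Arhgef40, a guanine nucleotide exchange factor (-1.61, adjusted p = 0.0176), whose second probe missed the threshold at -1.17 (adjusted p = 0.160). The other was A_30_P01032482, of an interval 58 kb downstream (-1.94, adjusted p = 0.0123), whose call was lost with animal as a block (adjusted p = 0.0518) and with dim signals raised to the array floor (adjusted p = 0.0515). In the paired fit with animal as a block, 3 probes around Sall2 were called lower, among them A_30_P01030057 and A_30_P01023608 of the same interval (adjusted p = 0.0377 and 0.0353). None of the 12 other named genes there was called, among them Mettl3, the catalytic subunit of the RNA adenosine methyltransferase (-0.19 and 0.33), Tox4 (-0.01 and -0.16), Rab2b (-0.34), Chd8 (-0.29), Hnrnpc (0.23 and 0.51) and Supt16 (1.18). The rest of that set were Mettl17 (-0.16), Ndrg2 (0.72), Zfp219 (-1.31 and -1.03), Tmem253 (0.84), Olfr221 (0.24) and Rpgrip1 (1.22 and 1.22). Around Sall3, Nfatc1 (-0.07 and -0.50) and Atp9b (0.19) were tested and 0 of 3 probes were called.

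The genes whose pattern over the 8 arrays was most like that of Sall1 were taken by the root mean square distance between log2 profiles, each centred on its own mean. They were Gm5796 (0.33), Gm3715 (0.34), Gm10406 (0.42), Gm3264 (0.53), Gm10413 (0.73), Gm5458 (0.83), Gm5797 (0.87) and Slc1a3 (0.97). The 7 predicted genes, named Gm, all lie on chromosome 14, and whether their probes tell near-identical copies apart was not tested. As this likeness follows from the difference between the 2 groups, it is given as a description. Slc1a3, the glial glutamate transporter, measured 3.61, 3.58, 3.55 and 3.80 in microglia and -3.27, -1.66, -2.97 and -3.94 in macrophages. As with Sall1, all microglia samples were high and macrophage replicate 2 was the highest of the low samples. Slc1a3 also marks astrocytes, and of the 7 tested markers of that cell type it was the only one called lower, while Gfap, the astrocyte filament protein, was called higher (2.74, adjusted p = 0.0136).

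Among its own family, Sall1 was nearest to the Sall4 probe A_55_P2173546, at a distance of 1.89 and place 110 of 29364 tested probes. Sall3 followed at 2.93 (place 517), then Sall2 at 3.41 (place 1186) and the second Sall4 probe at 4.36 (place 14711). The macrophage values of Sall3 and of this Sall4 probe were below background, so that their distances rest on the microglia values and on the size of the gap.

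**Figure D4:**
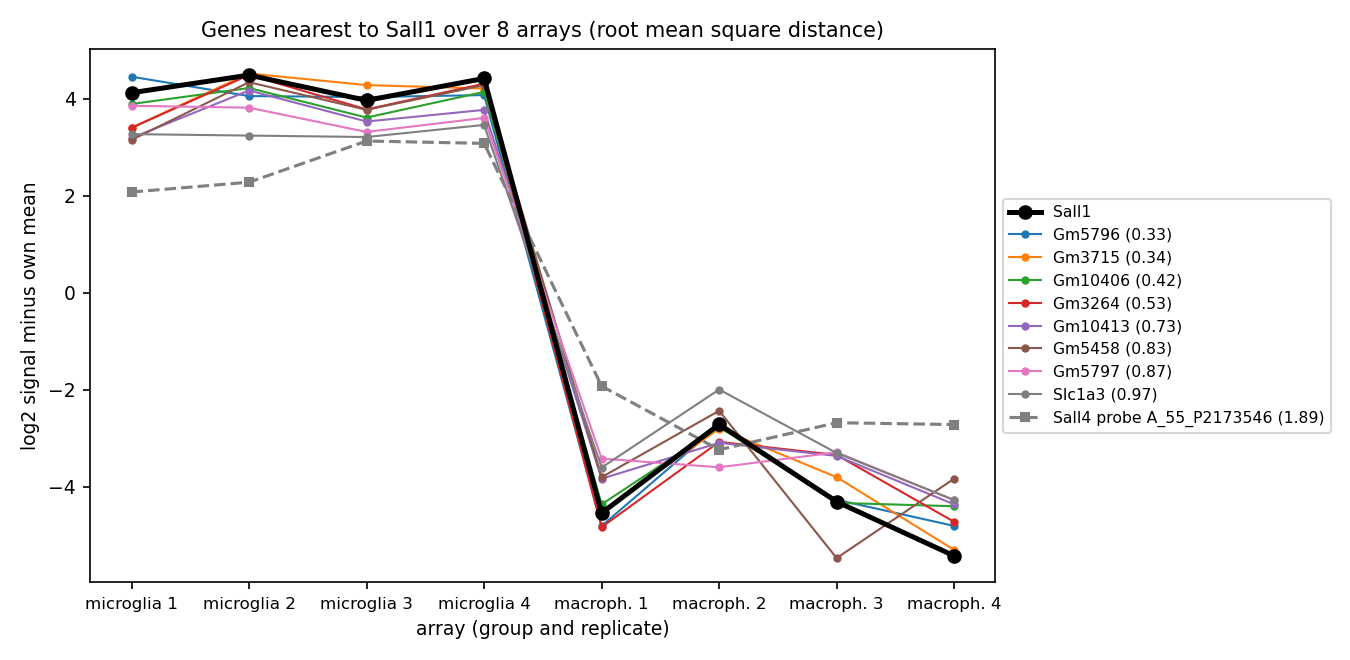
The log2 signal of Sall1 and its 8 nearest genes, each minus its own mean, is plotted for the 8 arrays, with the root mean square distance from Sall1 in the legend and the Sall4 probe A_55_P2173546 as a dashed line. All lines are high in microglia and low in macrophages; the macrophage values of the Sall4 probe are below background.

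Regulators known beside Sall1 in microglia were called about as often as genes over the array. Of 36 transcription regulators of microglia and macrophages, all tested, 1 was called lower and 1 higher, and their median difference was -0.25; over all 13224 genes, with 1 probe each, 4.08% were called lower, 2.64% higher and the median was 0.04. Egr1, an immediate early zinc finger factor, measured 3.51 in microglia and 1.44 in macrophages (-2.07, adjusted p = 0.00556, limma). The factors most often named with microglial enhancers were not called, and chosen after their values were seen they were Mef2a (-0.16), Mef2c (-0.68), Spi1, which encodes PU.1 (-0.52), and Irf8 (-1.01). A second probe of Ikzf1, a lymphoid and myeloid zinc finger factor, was called lower (A_55_P2023607, -1.40, adjusted p = 0.00840), while the probe that stood for the gene was not (-0.65). The counts were 1 lower and 2 higher with animal as a block, and 2 lower and 3 higher without macrophage replicate 2. The count of higher calls was 3 without microglia replicate 3 and 0 without any 1 of the other 6 samples.

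The NuRD subunits, with which Sall proteins act on chromatin, and the TGF-beta pathway gave no calls on the probe that stood for each gene. With 4.08% of all genes called lower and 2.64% higher, a count of 0 in lists this short is near the background and is no result about them. Of the 14 NuRD subunits 0 were called (limma), with a median difference of 0.31 and 3 members at an unadjusted p under 0.05, all higher. A second probe of Mbd2, which binds methylated DNA, was called higher (A_66_P133043, 1.19, adjusted p = 0.0248), while the probe that stood for it was not (0.98, adjusted p = 0.102). Chd4, its remodelling ATPase, differed by 0.23 and Hdac1, a histone deacetylase, by -0.13. TGF-beta is known to be needed for microglial identity in the mouse, and of 13 tested of 19 listed genes of its pathway 0 were called, with a median of -0.22 and 4 at an unadjusted p under 0.05, of which 3 were lower. Its receptors Tgfbr1 and Tgfbr2 differed by -0.85 and -0.76 (limma, adjusted p = 0.277 and 0.0614), and the transducers Smad3 and Smad4 by -0.95 and 0.04. Their other tested probes were not called either. They differed by -2.77, -1.16 and -0.77 for Tgfbr1, -0.64 for Tgfbr2, -1.72 for Smad3 and 0.49 for Smad4. Without macrophage replicate 2, 2 genes of this pathway were called lower and 1 NuRD subunit higher. With array weights 3 genes of the pathway were called lower and 2 NuRD subunits higher, and with normexp background correction 1 and 1. Some other settings, such as 1 probe per gene, gave 1 pathway gene called lower, while others, such as the blocks, gave 0.

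Genes that work with Sall4 in embryonic stem cells gave 0 calls among 7 tested of 13 (limma, median 0.27, 1 at an unadjusted p under 0.05), a list again too short to be read against 4.08% and 2.64%. Pou5f1, the pluripotency factor Oct4, was dim in both groups, at -2.98 in microglia and -3.13 in macrophages, and Sox2 was well above background on 0 microglia and 2 macrophage arrays. Nanog, a pluripotency homeodomain factor, differed by -0.10 on the probe that stood for it, which read 7.94 in microglia and 7.84 in macrophages. Whether so bright a probe reports Nanog alone was not tested. Its dimmer probe A_55_P2007703 was called higher (3.29, limma, adjusted p = 0.0103). The microglia mean of this dimmer probe, -4.95, lay below the floors of the microglia arrays (-4.23 to -3.60), so that the size of its difference is uncertain. Values of list members other than Egr1 are given as examples chosen after they were seen.

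**Figure D5:**
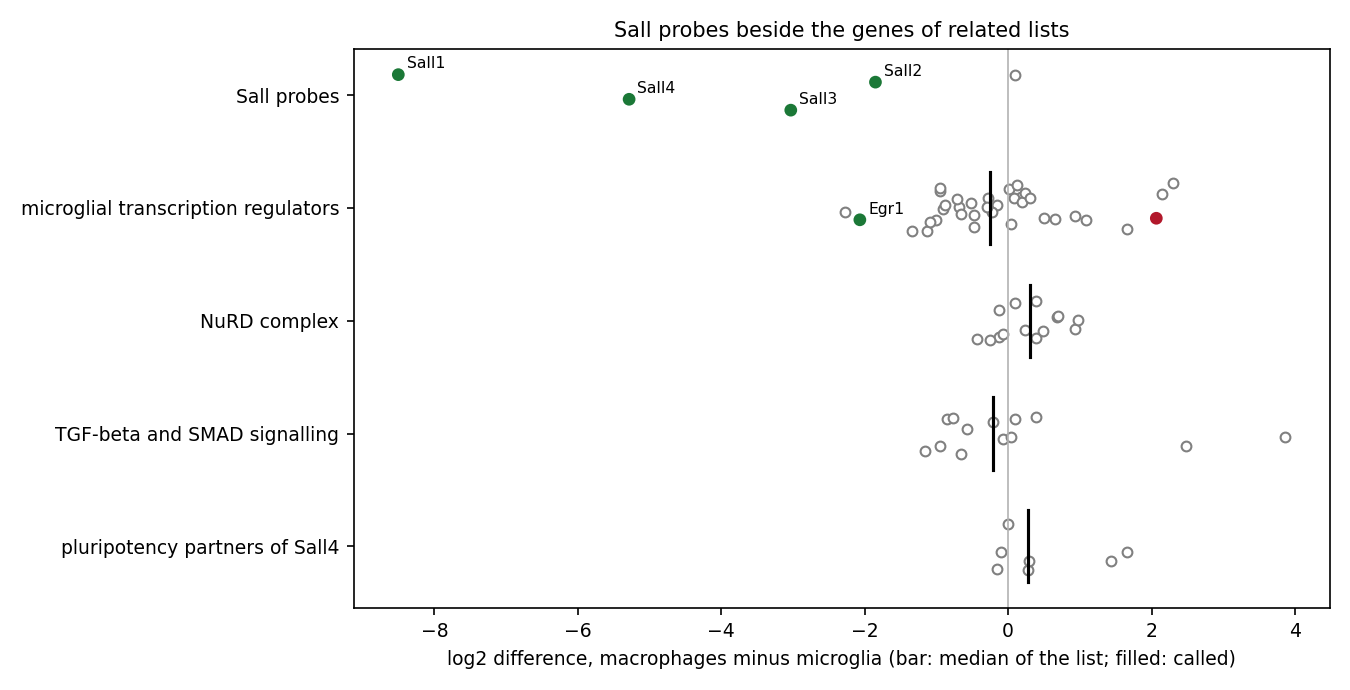
Each point is the log2 difference, macrophages minus microglia, of 1 tested Sall probe (top row) or of 1 gene of a list, with filled points called and a bar at the median of each list. The called Sall probes lie between -8.50 and -1.85, while the 4 lists hold 1 gene called lower, Egr1, and 1 called higher.

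Promoter sequences were matched for Sall1 and Sall2, both called lower. RefSeq (GRCm38.p6, a build other than that of the array files) gives 3 start sites for Sall1 and 2 for Sall2 in the tables used here, each as a window of 300 bases around the start. The Sall1 windows hold 18, 27 and 39 CpG pairs against a median of 7 over 32851 promoters, and the Sall2 windows hold 1 and 10. The GC box (GGGCGG, either strand) occurs 0, 4 and 1 times in the Sall1 windows and 0 times in both Sall2 windows. The printed window is that of Sall1 with the most (chr8:89043463-89043762, minus strand), with its 4 GC boxes in capitals; 35.7% of all promoters hold at least 1.
Sall1: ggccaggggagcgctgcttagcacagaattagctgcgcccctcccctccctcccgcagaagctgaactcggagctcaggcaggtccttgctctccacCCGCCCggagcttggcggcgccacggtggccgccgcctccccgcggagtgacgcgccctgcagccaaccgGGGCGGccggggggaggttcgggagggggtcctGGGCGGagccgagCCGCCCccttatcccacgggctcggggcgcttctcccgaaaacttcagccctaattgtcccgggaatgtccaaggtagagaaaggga
The letters GAGGAA (PU.1 core, in 28.3% of promoters), TGANTCA (AP-1, 7.8%), GTCTAGAC (SMAD, 0.2%) and the MEF2 motif, CTA and TAG 4 bases apart (3.7%), occur in 0 of these 5 windows on either strand. The letters TATAAA occur in 1 Sall2 window and in 13.6% of all promoters. These searches describe letters in short windows and say nothing of binding.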

How the data were processed

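Cells from 4 mice were sorted into 4 microglia and 4 macrophage samples, and per the labels' protocols their RNA was amplified by a global PCR, which can change the proportions of transcripts, and labelled with Cy3. The scanner software was Agilent Feature Extraction 10.7.3.1 (build mm9), per the file headers, and it gave the background-subtracted processed signal, an intensity that the authors deposited without normalization between arrays. A table of log2 values deposited by the authors was used as an alternative. Its column medians lay between 4.604 and 4.606, each column correlated with its array at 0.996 to 1.000, and the sources used here do not give its centring or normalization.

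Of 62976 spots per array, 3671 controls and all spots marked as outliers were left out, and replicate spots of a probe were averaged. Each array's 75th percentile was subtracted on the log2 scale. Probes well above background on at least 4 of 8 arrays were tested, two-sided, with lmFit and eBayes of limma 3.58.1 (R 4.3.3) and Benjamini-Hochberg adjustment over 29365 probes. Of several tested probes of a gene, the one with the highest mean stood for it in lists. Probes were named through RefSeq gene tables of GRCm38.p6 (31462 of 55681). A bound, written "at least", sets the brighter group's mean against the dimmer group's mean after signals below the array floor were raised to it. The floor is the lowest signal of any probe well above background on that array. Some signals above it were not well above background, such as Sall2 in macrophage replicate 4 (0.077 above the floor). Bounds and upper limits at the floor are therefore approximate. Tables and figures used Python 3.11.15, pandas 2.3.3, numpy 2.4.6 and matplotlib 3.10.9.

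The members and lists were chosen with earlier results of these data known. The text names every Sall probe, the 8 genes most like Sall1, the 3 called members of each list with the largest change in either direction, and every gene with a tested probe within 500 kb of a Sall probe; other names were chosen after values were seen, and some genes that the rule takes are left out by name. Samples are paired by animal in the labels. Within animals A to D, the 2 samples' deviations from their group means correlated across probes at 0.0421, 0.0981, 0.0695 and -0.0184. The fit without animal is reported, and the block, the slide, other background corrections, scalings and filters, array weights and the removal of single samples were tried. In simulated data with 29323 probes, 96% of probes changed by -8, 82% by -4, 46% by 2 and 84% by 4 on the log2 scale were recovered, with 12 false calls. The simulated signals had no background floor. Recovery of differences that end at background, such as those of Sall1, Sall3 and the Sall4 probe A_55_P2173546, was therefore not tested.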

Additional observations from a re-analysis of the deposited data

How the results depend on the processing

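Of 24 alternatives each, the Sall1 probe kept its direction and call in 24 (differences of -9.02 to -5.68, highest adjusted p = 0.0460 within slide 1), the Sall4 probe A_55_P2173546 in 23, Sall3 in 20 and Sall2 in 12. Sall2 lost its call with animal as a replicate block (-1.85, adjusted p = 0.0902), with no filter on dim probes (-1.85), with slide as a block (-1.81), with both blocks (-1.73), within slide 1 (-1.93) and slide 2 (-1.74), and without 6 of the 8 single samples (-1.93 to -1.51; -2.23 to -1.51 over all 8). Sall3 lost it with normexp (-0.74), with signals raised to the array floor (-1.49), within slide 1 (-3.09) and within slide 2 (-2.52), and ran from -3.40 to -2.75 without single samples; A_55_P2173546 lost it within slide 1 (-4.11). The Sall4 probe A_51_P145260 changed sign, never called, with the percentile over detected probes (-0.066), the floor (-0.14), the slide block (-0.10), both blocks (-0.066), within slide 2 (-0.57), with array weights (-0.25), and without microglia replicate 1 (-0.40) or macrophage replicate 2 (-0.10; -0.40 to 0.33 over all single samples left out). The replicate block changed no other call of a Sall probe. Over all probes, 1206 lower and 688 higher became 730 and 352 with the replicate block, 596 and 240 with both blocks, 74 and 16 within slide 1, 187 and 17 within slide 2, 2489 and 2469 with array weights and 568 and 398 with 1 probe per gene; higher calls were 429 with the slide block, 406 with no filter, 1113 with normexp and 1060 with median centring. Without single samples the counts ran from 676 to 2005 lower and from 305 to 2093 higher, both highest without macrophage replicate 2; lower calls were 676, 715 and 711 without microglia replicate 2, 3 or 4, and higher calls 305, 357 and 344 without these and 374 and 369 without macrophage replicate 1 or 3. Median centring moved the median difference of all probes to 0.21 and the percentile over detected probes moved it to -0.16. Fits within a slide, with blocks or without a sample have fewer samples or residual degrees of freedom by construction. Otherwise the cause was not tested.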
